A study of Rattus norvegicus with 13 samples.

Results

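The genes Kif4a, Kif23, Kif2c, Kif20a and Kif20b encode kinesins that work in mitosis, and they were taken by name as 5 of the 14506 genes measured. Each had 1 probe set with exactly 1 gene symbol. They were proposed with the results of these same arrays known, in which they were lower in skin-derived precursors (SKPs) than in mesenchymal stromal cells (MSCs), so that difference is described here without a test. The 13 Affymetrix Rat Gene 1.0 ST arrays held RNA of 9 SKP isolates, 3 each from dorsal trunk, facial and ventral trunk skin, and of 4 MSC isolates. All cells came from adult Sprague Dawley rats that carry no stated genetic change or treatment, and were used after 2 passages in culture. SKPs are dermal precursors grown in culture and MSCs are cultured stromal cells, whose tissue of origin is not given in the sources used here. Levels are log2 values, SD is the standard deviation over the isolates of a group, SE is the standard error of a fitted difference, and a gene is called where its adjusted p in the limma fit over all genes is under 0.05.

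Kinesins are motor proteins that use ATP to walk along microtubules or to take them apart. Most carry cargo in cells of every kind, whereas a smaller set builds the mitotic spindle, moves chromosomes and completes cytokinesis. Genes of that set are transcribed mainly in G2 and mitosis, so in a culture their RNA level is widely read as a sign of dividing cells. In RNA from a whole culture, fewer cells in mitosis and less RNA per mitotic cell cannot be told apart. Kif4a is a chromokinesin of chromosome arms and, with its partner Prc1, of the central spindle. Kif2c (also MCAK) does not walk but depolymerises microtubule ends and corrects faulty attachments at kinetochores. Kif23 forms the centralspindlin complex with Racgap1, Kif20a carries the chromosomal passenger complex to the central spindle, and Kif20b acts late in cytokinesis.

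Promoter sequence of the members is shown because they moved together across arrays. G2 and mitosis genes in human and mouse often carry a cell cycle homology region (CHR), bound by the DREAM complex in resting cells and by the B-Myb and FoxM1 complexes in G2, near a CCAAT box bound by NF-Y. The RefSeq windows of assembly GRCr8, from 250 bases before to 50 after an annotated start, were searched on both strands for TTTGAA or TTCGAA (CHR) and for CCAAT. The motifs did not overlap one another, apart from a pair of CHR matches in Kif20b that lie end to end. Sequences run 5′ to 3′ on the strand of the gene, and capitals mark these matches, where ATTGG is CCAAT on the other strand. Kif2c held no match, and its line shows the bases around the start. The stretch of Kif4a is chrX:69761693-69761900, plus strand, that of Kif23 chr8:71320643-71320687, minus strand, that of Kif20b chr1:241840846-241841043, plus strand, that of Kif20a chr18:26504187-26504343, plus strand, and that of Kif2c chr5:135899163-135899312, minus strand.
Kif4a: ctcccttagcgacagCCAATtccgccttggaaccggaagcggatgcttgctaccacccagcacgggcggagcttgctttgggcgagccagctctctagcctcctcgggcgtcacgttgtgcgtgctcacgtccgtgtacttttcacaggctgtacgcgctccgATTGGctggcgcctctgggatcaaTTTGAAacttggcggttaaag
Kif23: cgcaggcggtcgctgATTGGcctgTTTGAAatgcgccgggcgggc
Kif20b: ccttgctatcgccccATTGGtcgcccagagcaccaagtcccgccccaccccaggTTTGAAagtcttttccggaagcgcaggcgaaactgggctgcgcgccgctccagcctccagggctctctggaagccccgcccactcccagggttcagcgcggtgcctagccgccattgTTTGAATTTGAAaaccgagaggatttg
Kif20a: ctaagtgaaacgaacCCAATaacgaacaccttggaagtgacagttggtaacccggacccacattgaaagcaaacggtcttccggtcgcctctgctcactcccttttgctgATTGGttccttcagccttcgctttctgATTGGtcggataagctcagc
Kif2c: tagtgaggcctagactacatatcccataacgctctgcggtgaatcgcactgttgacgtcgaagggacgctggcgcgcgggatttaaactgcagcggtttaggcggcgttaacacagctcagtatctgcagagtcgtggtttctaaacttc

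The windows of 3 genes held both motifs and differed in their layout. In Kif23 a CCAAT box at -88 and a CHR at -79 lay almost side by side, counted from the annotated start to the leftmost base of the match. Kif4a had CCAAT boxes at -175 and -27 and a CHR at -3. Kif20b had a CCAAT box at -155 and CHR matches at -116, 2 and 8. The Kif20a window held CCAAT boxes at -220, -125 and -98 and no CHR letters, and neither of the 2 windows annotated for Kif2c held either motif. The E2F letters searched (TTTGGCGC, TTTCGCGC, TTCCCGCC and TTTCCCGC) matched in Kif23 at 25. By windows, 3 of 6 of the members held the CHR letters, against 36 of 48 (75.0%) of other mitotic genes and 19.7% of 33469 windows of all genes. The CCAAT letters were in 4 of 6, against 32 of 48 and 37.5% of all windows. Both motifs together were in 3 of 6, against 27 of 48 and 7.95% of all windows. A match is a string of letters, not a site shown to be bound.

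**Figure D1:**
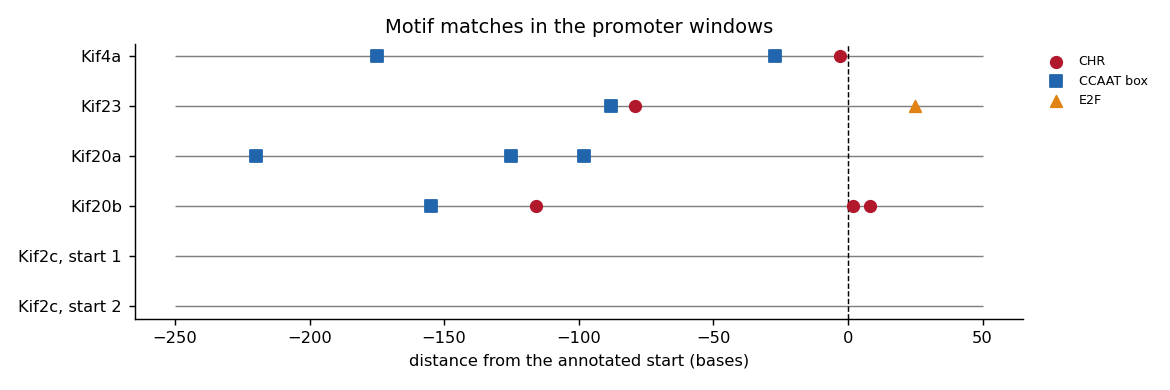
Positions of CHR (circles), CCAAT box (squares) and E2F (triangle) matches in the 6 promoter windows of the 5 kinesins, in bases from the annotated start (dashed line). Kif4a, Kif23 and Kif20b hold both CHR and CCAAT letters, Kif20a holds CCAAT letters without CHR, and the lines of Kif2c are empty.

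Dorsal isolate 3 stood apart from the other arrays, so results that rest on it are given with and without it. It was the lowest of 13 arrays for all 5 kinesins and for 34 of 48 other mitotic genes, as for 10.9% of all genes. On it the 15 genes of a hypoxia and glycolysis list averaged 10.08, above the 8.66 to 9.21 of the other SKP arrays and the 8.73 to 9.46 of MSC arrays. The 8 SKP and neural crest markers averaged 6.71 there and 7.90 to 8.52 on the other SKP arrays, with 6.73 to 7.05 on MSC arrays. Of these 8 markers 5 were called higher in SKPs than in MSCs, Sox2 among them, and 1, Snai2, was called lower. Of the 7 MSC surface markers 2 were called higher and 1 lower in SKPs. Over all genes 13.1% were called higher and 12.2% lower. Macrophage markers were also present: 6 of 11 were called higher in SKPs, and their mean was highest on facial isolate 3 (10.16), where the kinesin mean of 5.68 lay between the 5.40 and 5.81 of the other facial isolates. By region, 10 of 11 were called higher in facial SKPs than in MSCs, 1 of 11 in ventral SKPs and 0 of 11 in dorsal SKPs. Of all 14506 genes 1373 were called higher in facial, 1891 in ventral and 1272 in dorsal SKPs, so the ventral count did not exceed that share. The mean of the macrophage markers was 6.70 to 10.16 on facial, 5.27 to 5.67 on ventral and 4.32 to 7.50 on dorsal SKP arrays, against 4.16 to 4.90 on MSC arrays. Endothelial markers were called higher in 5 of 6 cases over all SKPs, and in ventral SKPs alone also in 5 of 6. Their mean was 4.96 to 5.54 on ventral arrays, whereas facial arrays (3.71 to 4.21) and dorsal arrays (3.52 to 3.78) lay near the 3.53 to 4.08 of MSC arrays. Over all SKPs, Schwann and melanocyte markers were called higher in 1 of 4 cases and keratinocyte markers in 0 of 4, of which 0 had an unadjusted p under 0.05 (limma). The part of these cells, or of hypoxia, in the kinesin levels was not tested.

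All 5 kinesins stood lower on each of the 9 SKP arrays than on any of the 4 MSC arrays, a pattern that 870 genes (6%) of the array showed. As means over the 3 regions they were between 5.09-fold (Kif20b) and 7.69-fold (Kif4a) lower in SKPs. Values of a group follow the numbers of its isolates.

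Kif4a measured 6.18, 5.76 and 2.50 on the dorsal SKP arrays, 5.50, 5.46 and 5.46 on the facial ones and 4.56, 4.62 and 4.53 on the ventral ones, against 7.71, 8.16, 7.36 and 8.36 on the MSC arrays. The facial and the ventral isolates were nearly identical within their regions, and dorsal isolate 3 lay far below every other array. The log2 difference of SKPs from MSCs was -2.94 (SE 0.52), and -2.56 (SE 0.17) without dorsal isolate 3. Ventral SKPs were furthest from MSCs at -3.33 and facial SKPs nearest at -2.42, and dorsal SKPs gave -3.08, or -1.92 without isolate 3. On dorsal isolate 3 Kif4a was below the 25th percentile of genes (3.76), the level taken here as background, so its depth there is not resolved.

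For Kif23 the level was 6.95, 6.49 and 3.90 on the dorsal SKP arrays, 6.42, 5.99 and 6.49 on the facial ones and 5.70, 5.53 and 5.28 on the ventral ones, against 8.15, 8.79, 8.13 and 8.75 on the MSC arrays. Dorsal isolates 1 and 2 and all facial isolates lay above the ventral ones, and dorsal isolate 3 was again the lowest array. The difference from MSCs was -2.60 (SE 0.44), and -2.29 (SE 0.17) without dorsal isolate 3. For dorsal SKPs alone it was -2.68, and -1.74 without that isolate, while facial SKPs gave -2.16 and ventral SKPs -2.96. Kif23 stayed above background on every array.

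Kif2c stood at 6.38, 5.91 and 3.37 on the dorsal SKP arrays, 5.88, 5.45 and 5.91 on the facial ones and 4.77, 4.80 and 4.68 on the ventral ones, against 7.51, 8.24, 7.21 and 8.15 on the MSC arrays. The order of the arrays was much like that of Kif23, with dorsal isolate 3 below background. The difference from MSCs was -2.54 (SE 0.44), and -2.23 (SE 0.20) without that isolate. Ventral SKPs gave -3.03, facial SKPs -2.03, and dorsal SKPs -2.56, or -1.64 without isolate 3.

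Kif20a had 7.44, 6.67 and 4.39 on the dorsal SKP arrays, 6.65, 6.08 and 6.31 on the facial ones and 5.80, 5.53 and 5.40 on the ventral ones, against 8.16, 8.87, 7.96 and 9.05 on the MSC arrays. Dorsal isolate 1 came closest to MSCs here, at 7.44 against 7.96 on the lowest MSC array. The difference from MSCs was -2.48 (SE 0.44), and -2.18 (SE 0.23) without dorsal isolate 3. Leaving that isolate out moved the dorsal value to -1.46, against -2.35 with it, whereas ventral SKPs gave -2.94 and facial SKPs -2.16.

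Kif20b reached 5.07, 4.29 and 2.67 on the dorsal SKP arrays, 4.62, 4.01 and 4.23 on the facial ones and 3.69, 3.77 and 3.59 on the ventral ones, against 5.93, 6.75, 6.01 and 6.68 on the MSC arrays. Dorsal isolate 3 and all 3 ventral isolates were below background, so the size of the difference is least resolved for this gene. It was -2.35 (SE 0.35), and -2.12 (SE 0.20) without dorsal isolate 3. Ventral SKPs gave -2.66, facial SKPs -2.06, and dorsal SKPs -2.33, or -1.66 without isolate 3.

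**Figure D2:**
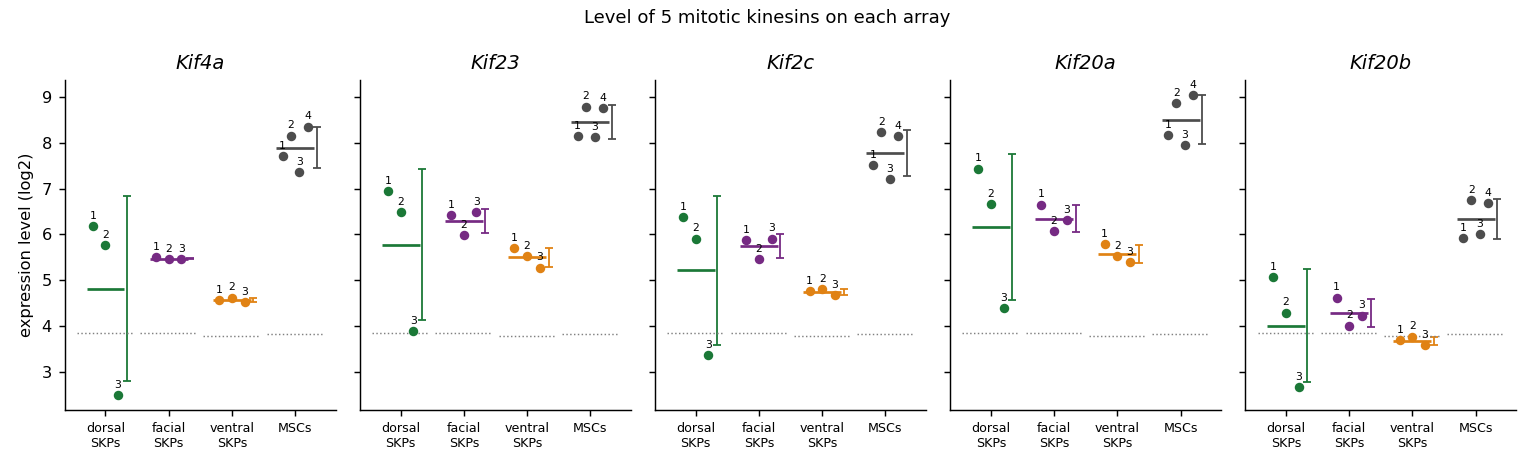
Level of the 5 kinesins (log2) on each array, by group, with points numbered by isolate, a bar at the mean, SD to the right of the points and a dotted line at the 25th percentile of gene means in that group. MSC points lie above all SKP points, and dorsal isolate 3 lies between 2.02 (Kif20b) and 3.47 (Kif4a) below the mean of dorsal isolates 1 and 2 on the log2 scale.

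The 5 genes were high and low on the same arrays. After each gene was centred on its mean over 13 arrays, the root mean square difference of a member from the mean of the other 4 was 0.12 for Kif23 and Kif2c, 0.17 for Kif20a, 0.29 for Kif20b and 0.33 for Kif4a (log2). The whole range over arrays was widest for Kif4a (5.85) and narrowest for Kif20b (4.08). The shared pattern also split the MSC isolates. Isolates 2 and 4 were above isolates 1 and 3 for all 5 genes, by between 0.63 (Kif23) and 0.90 (Kif20a). Over all genes 15.4% had this order, and 44 of 48 other mitotic genes did.

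Ventral SKPs had the lowest level of all 5 genes once dorsal isolate 3 is set aside, and facial SKPs stood between dorsal isolates 1 and 2 and ventral SKPs in their means. Every facial isolate exceeded every ventral one for all 5 genes, as 16.8% of all genes did. Markers of other cells moved in the same comparisons. Endothelial markers were called lower in 4 of 6 cases in facial than in ventral SKPs (median -1.20) and in 4 of 6 in dorsal than in ventral SKPs (median -1.47). Of all 14506 genes 632 and 545 were called lower in these comparisons. Macrophage markers had a median facial minus ventral difference of 2.89, with 2 of 11 called higher, against 2.25% of all genes. At an unadjusted p under 0.05 (limma) there were 9, for which no share over all genes was taken. Their part in the kinesin differences between regions was not tested. With all 13 arrays in the limma fit, none of the 5 was called between any 2 regions at an adjusted p under 0.05, and 0 had an unadjusted p under 0.05. Facial minus ventral differences then ran from 0.60 (Kif20b, SE 0.47, adjusted p = 0.507) to 1.00 (Kif2c, SE 0.60, adjusted p = 0.365), where 2.25% of genes were called higher. Dorsal minus ventral differences ran from 0.24 (Kif4a, SE 0.71, adjusted p = 0.888) to 0.59 (Kif20a, SE 0.60, adjusted p = 0.634), where 2.35% of genes were called higher. Facial minus dorsal differences ran from 0.18 (Kif20a, adjusted p = 0.922) to 0.66 (Kif4a, adjusted p = 0.719), where 1.25% of genes were called.

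One isolate decided these calls. All groups share the estimate of spread, and the dorsal SD of Kif4a was 2.02, against 0.02 in facial and 0.05 in ventral SKPs. Without dorsal isolate 3, facial exceeded ventral SKPs in Kif4a by 0.90 (SE 0.22, adjusted p = 0.0271), in Kif2c by 1.00 (SE 0.26, adjusted p = 0.0351) and in Kif23 by 0.80 (SE 0.23, adjusted p = 0.0498). That made 3 of 5 called higher, against 3.57% of all genes called higher. Kif20a (0.77, adjusted p = 0.136) and Kif20b (0.60, adjusted p = 0.186) did not pass. With no dorsal arrays in the fit, an alternative chosen after seeing the data, Kif4a and Kif2c passed and Kif23 did not (adjusted p = 0.0511), where 3.72% of all genes were called higher. Between dorsal isolates 1 and 2 and ventral SKPs 4 of 5 were called higher, against 2.47% of all genes called higher. The differences were 1.40 for Kif4a (SE 0.25, adjusted p = 0.010), 1.22 for Kif23 (SE 0.25, adjusted p = 0.0199), 1.39 for Kif2c (SE 0.29, adjusted p = 0.0200) and 1.48 for Kif20a (SE 0.34, adjusted p = 0.0291). Kif20b missed at 1.00 (adjusted p = 0.0766). Dorsal isolate 3 was the lowest array for these same 5 genes, so leaving it out raises the dorsal means and shrinks the shared estimate of spread. The facial minus ventral and dorsal minus ventral calls without it are therefore a description and no independent support. The 5 genes were high and low on the same arrays, so the members called are not separate observations. With array weights, an alternative that kept this isolate at the lowest weight, 0 of 5 were called between dorsal and ventral SKPs. The same fit called 0 of 5 between facial and ventral SKPs. Facial minus dorsal turned negative for all 5 without that isolate, between -0.71 (Kif20a, adjusted p = 0.464) and -0.39 (Kif2c, adjusted p = 0.641), with 0 called and 0 at an unadjusted p under 0.05, where 0.572% of all genes were called higher and 0.427% lower. Whether dorsal skin gives higher kinesin levels than facial skin was therefore not resolved, and for Kif20a and Kif20b no facial difference from ventral SKPs passed.

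**Figure D3:**
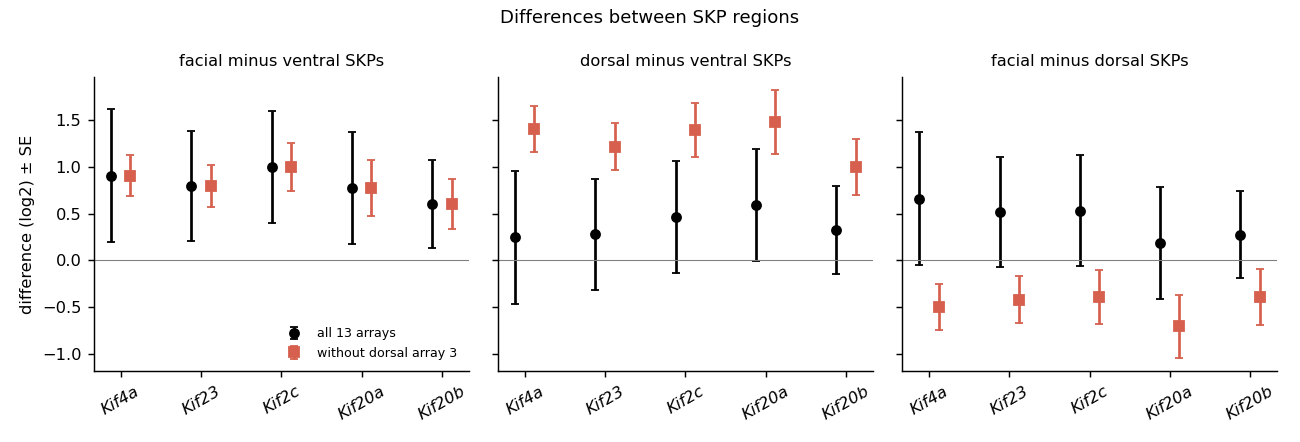
Log2 differences ± SE of the 5 kinesins between SKP regions, fitted with all 13 arrays (black circles) and without dorsal isolate 3 (red squares). Facial minus ventral keeps its value and its SE shrinks, dorsal minus ventral rises, and facial minus dorsal changes sign.

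The 5 other mitotic kinesins measured, out of 8 listed, all fell in SKPs against MSCs (limma, adjusted p under 0.05), with a median log2 difference of -1.77, against -0.02 over all genes, of which 12.2% were called lower and 13.1% higher. Kif11, the motor that pushes spindle poles apart, fell by 2.08 (SE 0.37, adjusted p = 0.0015), and the chromosome-binding Kif22 fell by 1.94 (SE 0.29, adjusted p = 0.000456). Kif18b (-1.77), Kif15 (-1.48) and the minus-end motor Kifc1 (-1.42) followed. Of 27 transport and other kinesins and light chains, 6 fell and 5 rose, with a median of -0.08. Among those that fell were Kif13a (-1.13, adjusted p = 6.5e-06), Kifc3 (-0.89, adjusted p = 0.000218), the conventional kinesin heavy chain Kif5b (-0.65, adjusted p = 0.00188) and Kif6 (-0.62, adjusted p = 0.0118). The 5 that rose were Kif3c (0.50, adjusted p = 0.0346), Kif16b (0.48, adjusted p = 0.00816), Kif13b (0.46, adjusted p = 0.00404), Kifap3 (0.45, adjusted p = 0.0230) and Klc4 (0.39, adjusted p = 0.0144). The list was not made of transport motors alone, since it held Kif2a (-0.61, adjusted p = 0.00235) and Kif2b (-0.11, not called), relatives of Kif2c. Only 1 of the 27 had the split of MSC isolates described above.

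**Figure D4:**
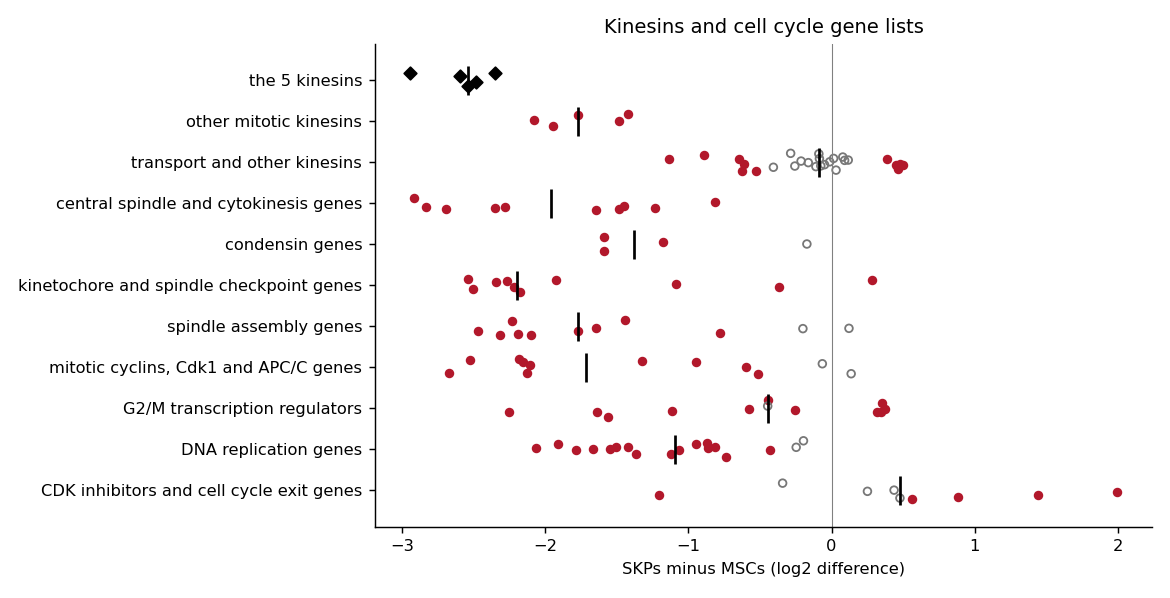
Log2 difference of SKPs from MSCs for each measured gene of the lists, filled red where limma called it, open grey where not, and black diamonds for the 5 kinesins, which were not tested; bars mark medians. The 5 kinesins lie between -2.94 and -2.35, the other mitotic lists mostly below -1, and the transport and other kinesins around 0.

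Genes of the central spindle and cytokinesis, among them partners of Kif4a and Kif23, fell as well, in 10 of 10 measured cases (median -1.96). The partner of Kif4a, Prc1, fell by 2.92 (SE 0.50, adjusted p = 0.00116). Racgap1, which joins Kif23 in centralspindlin, fell by 2.35 (SE 0.43, adjusted p = 0.00172), and Ect2, the exchange factor it recruits, fell by 2.83 (SE 0.43, adjusted p = 0.000491). Chromosomal passenger genes, whose complex Kif20a carries, fell too: Cdca8 by 1.64, the kinase Aurkb by 1.48, Birc5 by 1.23 and Incenp by 0.81. Cep55 (-2.69), Plk1 (-2.28) and the kinase Cit (-1.45) made up the rest. Condensin genes, which like Kif4a act on chromosome arms, fell in 3 of 4 cases (median -1.38), namely Smc4 (-1.59), Smc2 (-1.59) and Ncapd3 (-1.18).

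Genes of the kinetochore, where Kif2c works, fell in 9 of 10 cases with a median of -2.20. The largest decreases were Ndc80 (-2.54, SE 0.59), Nuf2 (-2.50, SE 0.37), Spc25 (-2.34, SE 0.52) and the checkpoint kinase Bub1b (-2.26, SE 0.38), each with an adjusted p of at most 0.0073. Zwint was the exception and rose (0.28, SE 0.09, adjusted p = 0.039), a call lost under 12 alternatives (adjusted p 0.0253 to 0.167 over all of them). Spindle assembly genes fell in 9 of 11 cases (median -1.77), led by Tpx2 (-2.47), Ska3 (-2.32), Spag5 (-2.23) and Hmmr (-2.19). Of 12 mitotic cyclin, Cdk1 and anaphase-promoting complex genes 10 fell (median -1.72), led by Ccnb1 (-2.67), Cdc20 (-2.52), Ccnb2 (-2.19) and Pttg1 (-2.15). Topoisomerase Top2a fell by 2.28 (SE 0.69, adjusted p = 0.0301), a call lost under 6 alternatives (adjusted p 3.6e-05 to 0.0844 over all of them), among them the fits without facial isolate 2, ventral isolate 3 or MSC isolate 1, 2 or 4.

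Factors that act on CHR and E2F promoters were mixed as a list, with 7 of 12 lower and 4 higher and a median of -0.44. The 4 called higher were Rbl2 (0.37, adjusted p = 0.00552), Lin37 (0.35, adjusted p = 0.0229), Nfya (0.35, adjusted p = 0.0355) and Nfyc (0.32, adjusted p = 0.0111). Those that fell most are themselves induced in cycling cells: Mybl2, which encodes B-Myb (-2.25, SE 0.25, adjusted p = 5.42e-05), E2f7 (-1.64), Foxm1 (-1.56, SE 0.19, adjusted p = 9.05e-05) and E2f8 (-1.12). DNA replication genes fell in 16 of 18 cases with a median of -1.09, led by Rrm2 (-2.07), Mcm5 (-1.91), Cdc6 (-1.78) and Mcm10 (-1.67). Inhibitors of cyclin-dependent kinases and other exit genes rose in 4 of 9 cases and fell in 1, with a median of 0.48. The inhibitor Cdkn2b rose by 2.00 (SE 0.09, adjusted p = 5.69e-08) and the antiproliferative gene Btg1 by 1.44 (SE 0.15, adjusted p = 3.32e-05), while Ccng2 rose by 0.88 (SE 0.15, adjusted p = 0.000917) and Cdkn2c fell by 1.21 (SE 0.20, adjusted p = 0.001). These counts differ between lists, and no difference between lists was tested. Without dorsal isolate 3, no count of these cell cycle and kinesin lists in either direction moved by more than 2 genes.

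The mean of the 5 kinesins varied over a wider span than the mean of the rest of the mitotic genes. Centred on their mean over 13 arrays, they averaged 1.32 to 2.19 on MSC arrays, where 48 other mitotic genes averaged 0.74 to 1.46. On ventral arrays the kinesins averaged -1.32 to -1.10 and the others -0.79 to -0.62, and on dorsal isolate 3 the values were -2.65 and -1.49. On facial arrays and dorsal isolates 1 and 2 both sets lay between -0.61 and 0.39. The kinesins were chosen for their difference from MSCs, so this wider span is a description only. The mean of the 48 also covers unlike genes. Prc1 differed from MSCs by -2.92, within the range of the kinesins, whereas Zwint differed by 0.28.

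**Figure D5:**
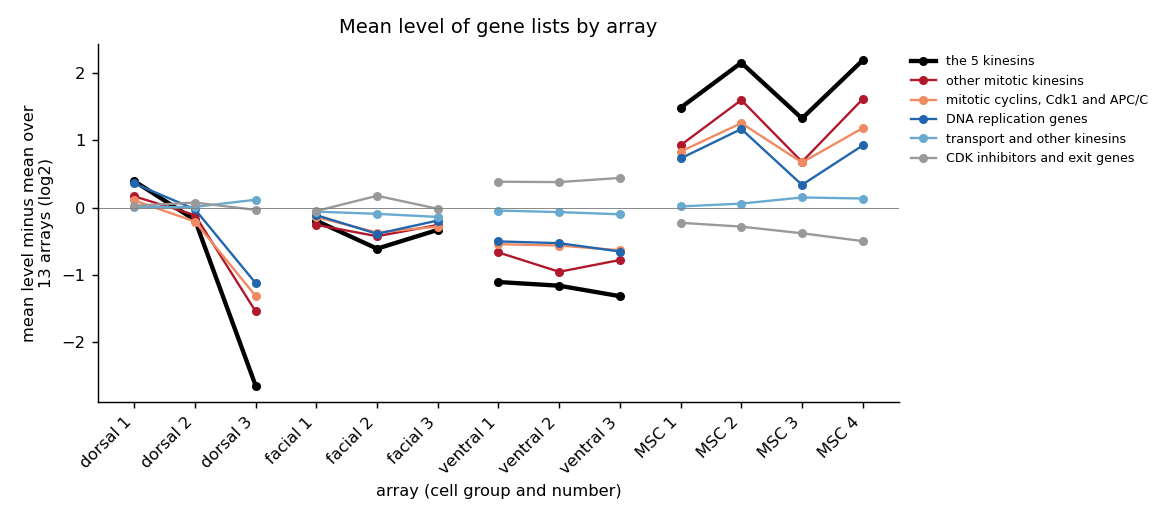
Mean level of each gene list on each array minus its mean over 13 arrays (log2), with isolates of a group joined by lines for reading only. The 5 kinesins (thick black) run from -2.65 on dorsal isolate 3 to 2.19 on MSC isolate 4, mitotic and replication lists follow them at smaller amplitude, and transport and other kinesins stay near 0.

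Among all genes, those with the profile most like the mean of the 5 kinesins over 13 arrays were Cdc20 (root mean square difference 0.14), Tpx2 (0.14), Racgap1 (0.15), Ect2 (0.17), Nuf2 (0.17), Plk1 (0.18), Ska3 (0.18), Mastl (0.20), Ccnb2 (0.21) and Bard1 (0.22), where the median gene differed by 1.41. Of the 50 nearest genes, 24 were in the mitotic lists, which hold 48 of the 14506 genes. These lists were chosen with earlier results of these data known. Mastl, a mitotic kinase, and Bard1, the partner of Brca1 in DNA repair, were in none of the lists. Over the 9 SKP arrays alone, which leaves out the difference from MSCs, the nearest were Racgap1 (0.11), Plk1 (0.11), Ccnb2 (0.11), Ska3 (0.13) and Cdc20 (0.13), against a median gene at 0.87. These values share the depth of dorsal isolate 3, and they are descriptions of 13 and 9 arrays without a test. Transport and other kinesins differed by at least 0.97 from the profile.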

How the data were processed

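Total RNA of each of 13 cultures was hybridised to 1 array. Per the labels, the authors summarised each gene by RMA in Affymetrix Expression Console, on its gene-core probe sets, which gives log2 values; limma is also named in the submitters' processing notes, and no versions or genome build are given in the sources used here. Values were used as deposited, and array medians lay between 4.91 and 5.01. Of 29215 probe sets, 15310 had exactly 1 symbol, and the highest mean was kept per gene, which left 14506 genes without a filter on low values. Symbols were updated through RefSeq (GRCr8).

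A 4-group model was fitted with limma 3.58.1 (R 4.3.3). Calls are two-sided and need p under 0.05 after Benjamini-Hochberg adjustment, taken across the 14506 genes separately in each comparison. The fit was tested on simulated data. The series text calls the SKP isolates independent and the MSC samples isolates, so p-values measure the spread between isolates, and precision is limited by how many arrays there are.

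The members, gene lists and tests were chosen with earlier results of these data known. Named were all members, the whole central spindle list, up to 4 called genes of each other list by size of the SKP minus MSC difference, Top2a, and the nearest profiles (10 over 13 arrays, 5 over 9). Outside that rule, Kifc1, Zwint, Kif2a and Kif2b were named after their values were seen. So were the genes that rose among transport and other kinesins and among the factors of CHR and E2F promoters. Mki67 was not analysed here. Sox2 and Snai2, and Cdkn2b between regions, were also named after their values were seen. Alternatives were each array left out, a replicate block, an intensity trend, array weights, a filter on low values, median centring, quantile normalisation, the mean of probe sets and, chosen after seeing the data, no dorsal arrays. Background is the 25th percentile of genes. Promoter windows came from RefSeq, with 48 of 57 other mitotic genes matched.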

Additional observations from a re-analysis of the deposited data

Results flagged for a closer look

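Kif4a on dorsal isolate 3 (2.50, log2) lay so far from the other SKP arrays that its gap to the next lowest, 0.551 of the whole range of 9 arrays, passed the 95% critical value of Dixon's test. Chance gives such a gap in about 1 of 20 groups, and 10 groups were examined, each of the 5 kinesins in SKPs and in MSCs. The 9 SKP arrays hold 3 regions, and the value was below the background level of its array.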

How the results depend on the processing

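The differences of the 5 kinesins from MSCs kept their direction under every alternative. Of those values 395 moved by less than the spread between replicates, and the other 5, those of dorsal SKPs without dorsal isolate 3, became smaller. Between regions, facial minus ventral kept its direction under every alternative, and 0 to 3 members were called as single arrays were left out, the 3 without dorsal isolate 3. Without any dorsal array, which was chosen after seeing the data, 2 were called. Dorsal minus ventral had 0 to 4 called, the 4 again without dorsal isolate 3. Its lowest and highest values as arrays were left out were -0.44 and 1.40 (Kif4a), -0.31 and 1.22 (Kif23), -0.11 and 1.39 (Kif2c), -0.047 and 1.48 (Kif20a), and -0.20 and 1.00 (Kif20b), the lowest without dorsal isolate 1. Facial minus dorsal ran likewise from -0.50 to 1.34 (Kif4a), -0.42 to 1.10 (Kif23), -0.39 to 1.11 (Kif2c), -0.71 to 0.82 (Kif20a) and -0.40 to 0.81 (Kif20b), negative without dorsal isolate 3. Array weights gave that isolate the lowest weight (0.285). With them facial minus dorsal was near 0, at -0.0031 (Kif4a), -0.028 (Kif23), -0.00042 (Kif2c) and -0.0095 (Kif20b). For Kif20a it was -0.24, and 0 members were called. Leaving out an array also leaves fewer samples, and the cause of the other changes was not tested.

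Genes called between facial and ventral SKPs numbered 958, 390 to 1416 as arrays were left out, 2441 with array weights and 1492 without dorsal arrays. Between dorsal and ventral SKPs they numbered 886, 327 to 937 as arrays were left out, and 1519 with array weights. Between facial and dorsal SKPs they numbered 182, and 94 to 258 as arrays were left out. With the replicate block they numbered 566 for dorsal minus ventral and 106 for facial minus dorsal, and 0 members were called between regions. The sample titles give only a number, and whether samples of 1 number were prepared together is not resolved. Their deviations from group means correlated between -0.12 and 0.20 and were highest for the own number in 12 of 36 cases. With so few arrays in a group these values cannot exclude a shared preparation. Among lists, the 1 kinetochore gene that rose, Zwint, became 0 with the replicate block, array weights, median centring and quantile normalisation, and 0 to 1 as arrays were left out. The 4 factors of CHR and E2F promoters that rose became 2 with the replicate block and 2 to 4 as arrays were left out, the 5 transport and other kinesins that rose 2 to 5, and the 1 exit gene that fell 1 to 2.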

Other observations

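The kinase inhibitor Cdkn2b was higher in ventral than in facial or dorsal SKPs, while the 5 kinesins had their lowest means in ventral SKPs. With all 13 arrays 0 of the 5 kinesins were called between ventral SKPs and another region. Cdkn2b and the kinesins both had a higher mean in facial than in dorsal SKPs with all arrays. A link between Cdkn2b and the kinesins was not tested. The Cdkn2b level was 9.11 ± 0.04 for dorsal, 9.37 ± 0.17 for facial and 10.26 ± 0.09 for ventral SKPs (SD, n = 3 each), against 7.58 ± 0.17 for MSCs (n = 4). Its facial minus ventral difference was -0.89 (SE 0.12, limma adjusted p = 0.00181) and its dorsal minus ventral difference -1.15 (SE 0.12, adjusted p = 0.000391), and both stayed called under every alternative run. Cdkn2b did not share the depth of dorsal isolate 3, since its dorsal SD was 0.04, against 2.02 for Kif4a.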
